A study of Mus musculus with 6 samples.

Results

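The genes described here build the cornified envelope and the epidermal barrier. They were taken by symbol: the late cornified envelope (Lce) genes, the kallikreins Klk5 to Klk14, the transglutaminases Tgm1, Tgm3 and Tgm5, the desmogleins Dsg1a, Dsg1b and Dsg1c, and further single genes such as Flg, Lor, Ivl, Casp14 and Spink5, each with at least 10 counts over all libraries. The rule found 54 of the 18422 genes in the count table, and used no difference between groups. RNA sequencing of poly(A) RNA was done on the ear skin of mice, taken at postnatal day 21. The 3 ecko libraries came from mice labelled Vegfr2ecko, an endothelial knockout of Kdr, which encodes the receptor VEGFR2 for vascular endothelial growth factor. The 3 control libraries are labelled as controls, littermates per the series' design text, and both groups carry the label of tamoxifen treatment. The design text gives more than 1 injection schedule, and neither the schedule of these mice, the Cre driver nor the deleted exon is given in the sources used here. The labels do not state which library came from which animal, so p-values measure the spread between these 3 libraries per group.

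The outer epidermis is renewed by keratinocytes that leave the basal layer, fill with keratin and die as flattened corneocytes. During that last step a shell of cross-linked protein, the cornified envelope, replaces the cell membrane, filaggrin-type proteins bundle the keratin, and lipids are attached outside. Corneodesmosomes hold the corneocytes together until kallikrein proteases, checked by the inhibitor encoded by Spink5, cut them and the cells are shed.

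Of the 54 genes, 29 lie in the epidermal differentiation complex, a cluster on chromosome 3 of GRCm38.p6. These 29 genes reach from 92080271 to 93449077, bounds set by the genes themselves and not by the complex. The 100 bases before the start of 5 of them are shown, 5′ to 3′ on the strand of the gene, because 3 of these genes (Lce3f, Rptn and Lce6a) passed the test described below and Lce1m and Lce1l are the family members that the account of Lce1 turns on. They are from RefSeq, GRCm38.p6, at chr3:92992117-92992216 (plus strand, Lce3f), chr3:93393599-93393698 (plus strand, Rptn), chr3:92621661-92621760 (minus strand, Lce6a), chr3:93019062-93019161 (minus strand, Lce1m) and chr3:92851287-92851386 (minus strand, Lce1l). Capitals mark the letters TATAAA, a core promoter element, and TGANTCA, a motif bound by AP-1 factors.
Lce3f: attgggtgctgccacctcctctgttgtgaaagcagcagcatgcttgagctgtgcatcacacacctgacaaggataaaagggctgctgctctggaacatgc
Rptn: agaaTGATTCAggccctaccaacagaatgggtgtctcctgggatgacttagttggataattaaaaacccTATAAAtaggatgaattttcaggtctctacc
Lce6a: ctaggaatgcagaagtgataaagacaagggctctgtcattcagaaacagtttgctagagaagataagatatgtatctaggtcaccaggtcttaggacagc
Lce1m: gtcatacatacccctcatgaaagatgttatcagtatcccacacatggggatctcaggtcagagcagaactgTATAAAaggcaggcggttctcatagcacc
Lce1l: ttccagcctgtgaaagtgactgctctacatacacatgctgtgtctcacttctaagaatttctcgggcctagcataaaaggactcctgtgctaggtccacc
Rptn holds TATAAA 31 bases and the AP-1 motif 96 bases before its start, and Lce1m holds TATAAA 29 bases before its start. The other 3 windows hold neither motif. Of the 54 genes, 47 had a promoter in the RefSeq table, and in the 250 bases before the start, on both strands, TATAAA stood in 12 of 47 (25.5%) against 13.0% of all 27025 promoters. TGANTCA stood in 8 of 47 against 6.87% of all promoters; these were Lor, Ivl, Crnn, Flg2, Flg, Rptn, Sbsn and Krtdap. It was in none of the 20 Lce promoters in the table. The other motifs searched were AACCNGTT (GRHL factors; 2.13% of these genes, Rptn alone, against 1.71% of all), CACCC (KLF factors; 57.4% against 51.3%), TTNNGCAAT (CEBP factors; 6.38% against 1.95%) and CATGTC (part of a p53 family site; 14.9% against 8.34%). A match describes letters in a window and is not a measured binding site.

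Library totals ranged from 17255419 to 18054700 counts. Kdr was measured at 475, 511 and 595 counts in controls and 58, 37 and 42 in ecko, and fell by 3.54 on the log2 scale (SE 0.17; edgeR quasi-likelihood test, adjusted p = 2.7e-05), in the direction of the labels. Reads from Y-linked genes put control 3 and ecko 3 as female (24 and 36 reads) and the other 4 libraries as male (3712 to 4390). Values below are CPM, the usual scaling of counts by library total, with totals corrected for composition by TMM. A log2 difference is the fitted log2 fold change of ecko over control. A gene was called, and is said to rise or fall, at a Benjamini-Hochberg adjusted p under 0.05 over the 14866 genes that passed the low-count filter.

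Most barrier genes lay above the controls by a small margin, and 4 of the 49 tested rose: Lce3f, Rptn, Lce6a and Casp14. None fell. The background was 0.686% of all tested genes called higher and 1.08% called lower. Lce3f and Lce3d passed the low-count filter only through their ecko libraries, so their being higher is set in part by the filter; among the other 47 genes, 3 rose. At an unadjusted p under 0.05 there were 16 higher, Lce3f and Lce3d among them, against 7.41% of all tested genes. There were 3 lower, against 7.95%, so the count lower was near the background. DESeq2, another count test, called 7 higher and 1 lower (Lce1m), against 1.27% and 1.50% of the genes it tested. In 15 of the 49 every ecko library lay above every control, against a background of 10.2%. In 4 (Lce1m, Klk5, Klk8 and Tgm5) every ecko library lay below, against 10.9%. Without Lce3f and Lce3d, 13 of the other 47 lay above in this way and the same 4 below. Of the 47 genes that did not pass the filter through ecko alone, 39 had log2 fold changes above 0 and 8 below, with a median of 0.17 beside 0.00 over all tested genes. In bulk skin, fewer cells of a type and less RNA per cell cannot be told apart.

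**Figure D1:**
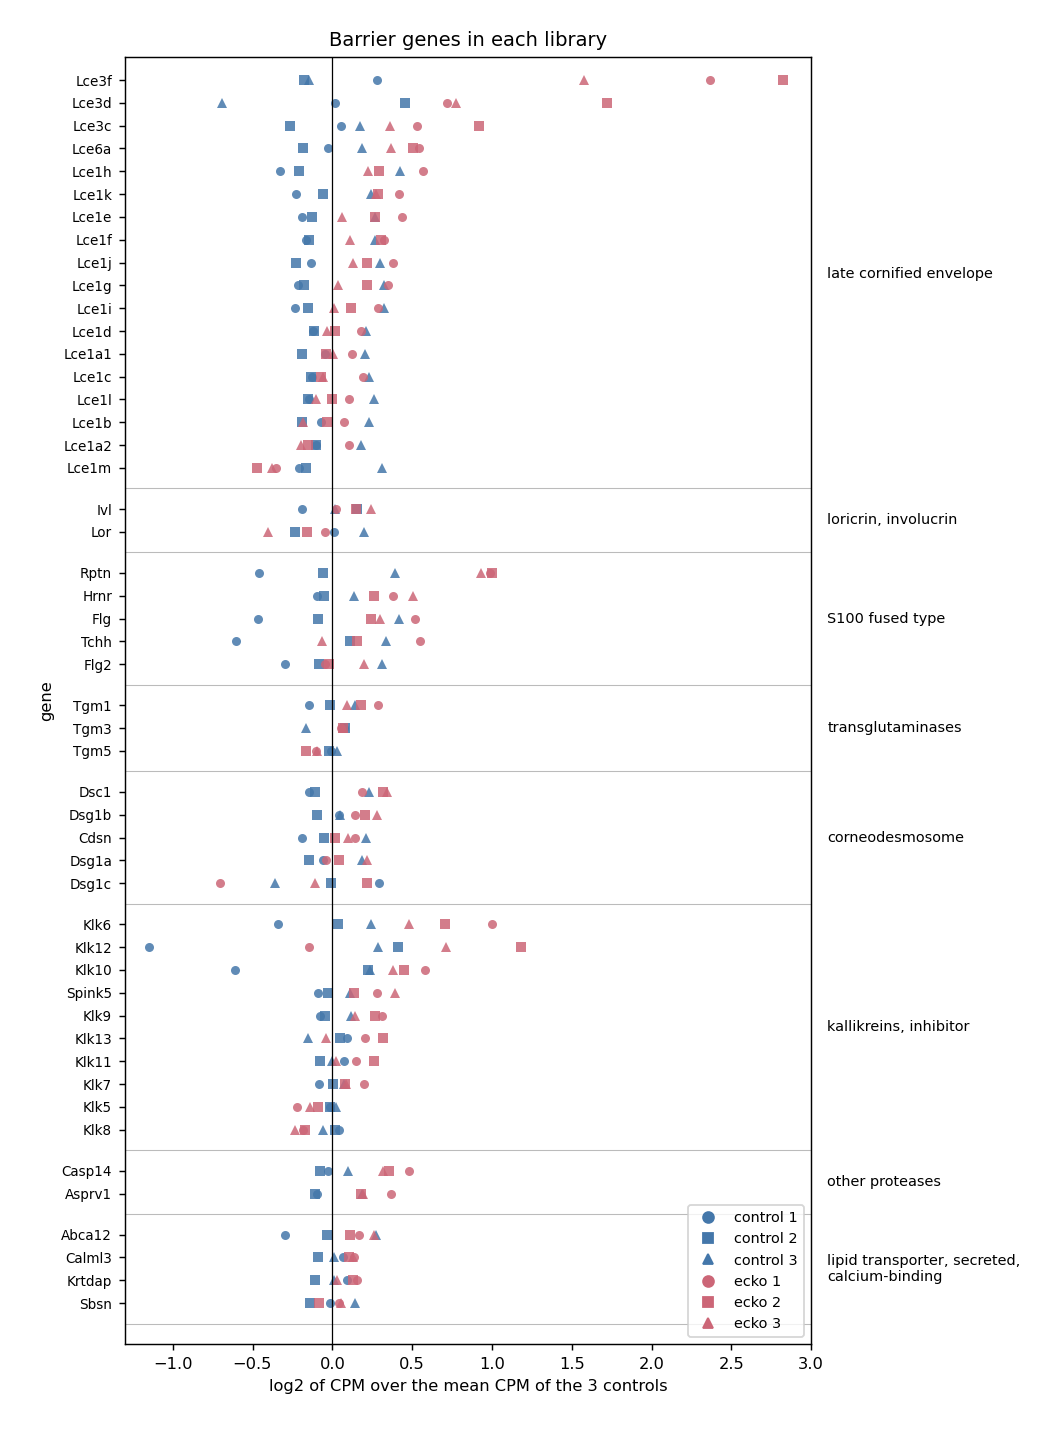
Each row is a tested barrier gene and each point 1 library, as log2 of its CPM over the mean CPM of the 3 controls (horizontal axis), grouped by role. Most ecko points lie to the right of 0, and control 3 lies to the right of the other controls in most rows.

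The controls were not alike in these genes. Control 3, a female library, was the highest control in 38 of the 49, against 33.4% of all tested genes. Control 1 was the lowest of the 6 libraries in 23 of the 49, against 21.2% of all tested genes. Control 2 was the lowest in 16, against 16.0%. The summed level of the 54 genes was 16640, 16580 and 20330 CPM in controls and 19790, 18660 and 19710 in ecko. The sum in control 3 was above that of every ecko library, so the groups overlapped. Without control 3, 9 genes were called higher, and without control 2, ecko 1 or ecko 2 none was; without control 1 or ecko 3, 1 was. Over all genes the count called higher moved the same way, from 102 to 165 without control 3, 46 without control 2, 24 without ecko 1 and 22 without ecko 2, and to 53 without control 1 and 65 without ecko 3.

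Among the 21 Lce genes, whose small proteins are added late to the envelope, 18 were tested and 2 rose, Lce6a and Lce3f. Lce6a, at the start of the Lce array, was at 62.5, 56.1 and 72.6 CPM in controls and 93.0, 90.3 and 82.3 in ecko. Each ecko library exceeded each control. The means were 63.7 ± 8.35 and 88.6 ± 5.58 CPM (SD over 3 libraries each), a log2 difference of 0.47 (SE 0.09; adjusted p = 0.0381, edgeR). The call was kept without control 3 and lost without any other library (adjusted p 0.0752 to 0.159), and with the replicate number as a block (0.0665).

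The Lce3 genes, whose human counterparts are known from wounded and inflamed epidermis, were near the limit of detection. Lce3f had 6.75, 4.99 and 5.11 estimated counts in controls and 28.6, 41.0 and 17.1 in ecko. The groups did not overlap, and ecko 3 was the lowest ecko library. No control library reached the minimum of the low-count filter, which the gene passed through ecko alone. Its level was 0.321 ± 0.0594 CPM in controls and 1.63 ± 0.657 in ecko (SD over 3 libraries each), a log2 difference of 2.31 (SE 0.42; adjusted p = 0.0287, edgeR). The size depends on how far edgeR shrinks low counts: it was 2.00 with a prior count of 2, with the same p. The call was lost without any 1 library other than ecko 3 (adjusted p 0.0520 to 0.111).

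Reads of Lce3 genes are hard to assign, since 48.0% of the 50-base words of Lce3f also occur in transcripts of other genes. Summed over the 6 Lce3 genes, the family was at 3.93, 3.41 and 4.37 CPM in controls and 7.13, 12.2 and 5.87 in ecko, with no overlap. The sum had a log2 fold change of 1.10 (SE 0.26, edgeR adjusted p = 0.0747) and was not called. Lce3c had a log2 fold change of 0.62 (adjusted p = 0.188) and Lce3d of 1.14 (adjusted p = 0.238), both with no overlap. Lce3a, Lce3b and Lce3e did not pass the filter, with 28, 30 and 62.9 counts over all libraries.

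The 14 Lce1 genes carried most Lce reads, and their summed means were close. The sum was 1470, 1457 and 1942 CPM in controls and 1764, 1574 and 1526 in ecko. Control 3 was the highest of all 6 libraries and the other controls the lowest. The means were 1623 ± 276 and 1622 ± 126 CPM (SD, n = 3 each), and the sum was not called (edgeR adjusted p = 0.997; SE of the log2 fold change 0.12).

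The highest mean CPM of the family was that of Lce1m in controls, while in ecko Lce1a1 was above it (234 against 228 CPM). Lce1m had the lowest log2 difference of the family between groups. It was at 261, 268 and 374 CPM in controls and 236, 217 and 231 in ecko. Every ecko library lay below every control, and control 3 was the highest. The log2 fold change was -0.40 (SE 0.12, edgeR adjusted p = 0.169), so it was not called; DESeq2 called it (adjusted p = 0.0284). Of the other 13 Lce1 genes 11 had log2 fold changes above 0 and none was called. They ran from -0.07 for Lce1a2 to 0.37 for Lce1h, with a median of 0.14. These results depended on control 3: without it Lce1f, Lce1h and Lce1j were called higher. In the male libraries alone Lce1e, Lce1f, Lce1g and Lce1h were. Lce1a1, Lce1a2, Lce1b, Lce1c, Lce1d and Lce1l changed sign with the setting. Whether the log2 fold change of Lce1m differs from that of the other 13 was not tested.

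As a share of all Lce1 counts, Lce1m made up 17.75%, 18.41% and 19.25% in controls and 13.39%, 13.8% and 15.17% in ecko. The shares did not overlap, with means of 18.47% ± 0.751 and 14.12% ± 0.932 (SD, n = 3 each). The difference was -4.349 percentage points. The share was examined because of the values of Lce1m above, so it is a description of them. An exact permutation test of the share between groups gave p = 0.1. That is the smallest p this test can give with 3 libraries per group, so it cannot decide whether the share differs. In sequence, its transcript has a median identity of 60.07% to the other Lce1 transcripts, where their own medians run from 67.03% to 81.12%, and it shares none of its 50-base words with other genes. Its promoter, printed above with that of Lce1l, has a median identity of 62.8% to the others, and that of Lce1l 61.6%.

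**Figure D2:**
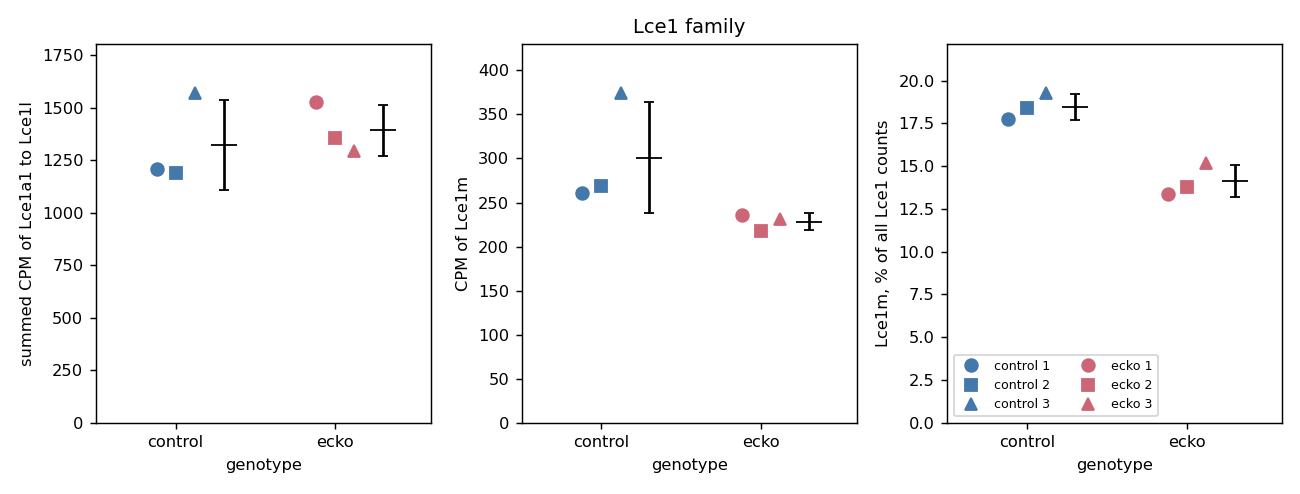
Points are single libraries and bars mark the mean and SD of 3 libraries per group, for Lce1m, the sum of the other 13 Lce1 genes (both in CPM) and the share of Lce1m in all Lce1 counts (percent). The share is lower in all 3 ecko libraries than in any control, while the sums of the other genes overlap.

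Loricrin and involucrin, long known as main and early proteins of the envelope, did not pass the test. Lor was at 1612, 1359 and 1834 CPM in controls and 1554, 1435 and 1213 in ecko, with overlap (log2 difference -0.19, SE 0.13, edgeR adjusted p = 0.523). Ivl was at 74.6, 94.9 and 86.3 CPM in controls and 86.6, 94.6 and 101 in ecko, also with overlap (0.14, SE 0.09, adjusted p = 0.522). Per kilobase of exon, Lor was at 900 CPM in controls and Ivl at 44.4. Krtdap, a secreted protein of differentiating keratinocytes, had the highest level per kilobase of the 54 genes, at 1332 CPM in controls.

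Repetin was the clearest of the S100 fused-type proteins, long repeat proteins to which filaggrin belongs. Rptn was at 14.7, 19.4 and 26.5 CPM in controls and 40.0, 40.3 and 38.6 in ecko. The ecko libraries were close together and all above the controls, which spread widely. The means were 20.2 ± 5.92 and 39.7 ± 0.942 CPM (SD over 3 libraries each), a log2 difference of 0.97 (SE 0.16; adjusted p = 0.0219, edgeR). The call was kept without control 1 and without control 3, and lost without each of the other 4 (adjusted p 0.0747 to 0.0943).

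The other 4 tested genes of this class had log2 fold changes above 0, and none was called. Hornerin, a filaggrin-like protein, was at 1816, 1870 and 2135 CPM in controls and 2523, 2328 and 2752 in ecko (Hrnr, 0.38, SE 0.10, edgeR adjusted p = 0.107). Its groups did not overlap, and DESeq2 called it (adjusted p = 5.28e-04). Flg, which encodes profilaggrin, was at 444, 579 and 821 CPM in controls and 880, 728 and 756 in ecko. Control 3 lay within the ecko range, and the log2 fold change was 0.36 (SE 0.18, adjusted p = 0.399). Without control 3 Flg was called (edgeR adjusted p = 0.0357). Flg2 had 0.05 (SE 0.15). Crnn, with 56 counts in all, was not tested.

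Trichohyalin, the S100 fused-type protein of the hair follicle's inner root sheath, was at 6.75, 11.1 and 13.0 CPM in controls and 15.1, 11.5 and 9.84 in ecko (Tchh, log2 difference 0.24, SE 0.23). The inner root sheath keratins and related markers, 8 genes of which 5 were tested and none called, summed to 5.83, 15.3 and 21.2 CPM in controls and 18.5, 13.6 and 7.16 in ecko. They were lowest in control 1, where Tchh was lowest too. Their part in the value of Tchh was not tested.

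Of the transglutaminases, which cross-link the envelope, none was called. Tgm5 was at 45.8, 45.5 and 47.1 CPM in controls and 42.9, 41.2 and 43.2 in ecko, all below the controls (log2 difference -0.12, SE 0.06, edgeR adjusted p = 0.359). Tgm1, the membrane-bound enzyme whose loss causes ichthyosis, had 0.19 (SE 0.08) and Tgm3 0.06 (SE 0.07), both with overlap.

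Caspase-14 takes part in filaggrin breakdown in the outermost layers. Casp14 was at 157, 152 and 172 CPM in controls and 224, 205 and 200.1 in ecko. All ecko libraries lay above all controls. The means were 160.3 ± 10.1 and 209.6 ± 12.3 CPM (SD over 3 libraries each), a log2 difference of 0.39 (SE 0.07; adjusted p = 0.0259, edgeR). The call was kept without control 3 and lost without any other library (adjusted p 0.0590 to 0.126), and with the block (0.0517). Asprv1, an aspartic protease that trims profilaggrin, was at 1266, 1255 and 1539 CPM in controls and 1748, 1532 and 1545 in ecko (0.25, SE 0.10, adjusted p = 0.285).

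The kallikreins lay on both sides of 0 and none was called. Klk6 had the smallest p, at 13.2, 17.1 and 19.7 CPM in controls and 33.3, 27.2 and 23.2 in ecko. Its groups did not overlap (log2 difference 0.74, SE 0.16, edgeR adjusted p = 0.0598); it was called by DESeq2, without the low-count filter, in the male libraries alone and without control 3. Klk7, which cuts corneodesmosomes, had 0.12 (SE 0.07), and Klk9 and Klk10 had 0.24 and 0.47; these 3 did not overlap either. Klk8 was at 82.5, 81.3 and 76.9 CPM in controls and 70.7, 71.4 and 68.2 in ecko, all below the controls (-0.19, SE 0.06, adjusted p = 0.148). Klk5, an activator of other kallikreins, was lower without overlap as well (-0.15, SE 0.06, adjusted p = 0.248).

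Klk11, Klk12 and Klk13 had log2 fold changes of 0.15, 0.68 and 0.17, and Klk14, with 40.0 counts in all, was not tested. The 10 kallikreins stand together on chromosome 7 between 43680880 and 43851181. Klk8 and Klk9, which are neighbours there, thus had fold changes of opposite sign. Spink5, the kallikrein inhibitor, was at 360.5, 375 and 412 CPM in controls and 464, 420 and 502 in ecko, with no overlap (0.27, SE 0.08, edgeR adjusted p = 0.161). DESeq2 called Spink5 (adjusted p = 0.0436).

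Corneodesmosome genes were not called. Dsg1b was at 264, 240 and 265 CPM in controls and 283, 295 and 311 in ecko, with no overlap (log2 difference 0.21, SE 0.07, edgeR adjusted p = 0.175). The desmogleins share sequence, and 23 of the 54 genes, Dsg1b among them, have over 5% of their 50-base words in other genes. Summed, the 3 Dsg1 genes had 0.10 (SE 0.10, adjusted p = 0.709). Dsc1 had 0.28 (SE 0.10, adjusted p = 0.233), Dsg1a 0.07, Dsg1c -0.13 and Cdsn, which encodes corneodesmosin, 0.09.

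None of the remaining 4 genes was called. Abca12, the transporter that loads lipid into lamellar granules, was at 127.5, 152 and 189 CPM in controls and 175, 168.5 and 187 in ecko, with overlap (log2 difference 0.18, SE 0.12, edgeR adjusted p = 0.537). Sbsn, Krtdap and Calml3 had 0.01, 0.11 and 0.12. For Calml3, a calmodulin-like protein of keratinocytes, the ecko libraries (292, 285 and 291 CPM) all lay above the controls (279, 250.1 and 268).

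Seen along the epidermal differentiation complex, 25 of its 29 barrier genes were tested, 21 with log2 fold changes above 0 and 3 of them called (Lce6a, Lce3f and Rptn). The other 15 tested genes between the outer ends of these 29 were mostly small proline-rich (Sprr) envelope precursors. All 15 were above 0, from 0.06 to 2.51, and Sprr2a1 (2.51) and Sprr1b (1.28) rose. In 5 of the 15 every ecko library lay above every control, against 10.2% of all tested genes. Sprr2a1 was at 147, 98.8 and 29.7 CPM in ecko, with ecko 3 the lowest. For Sprr2b ecko 3 (1.06 CPM) lay within the control range (0.398 to 1.93). Summed, the 15 were at 1160, 1333 and 1554 CPM in controls and 1810, 1582 and 1477 in ecko, with overlap. Sprr2 genes are near-identical copies, so their single values are uncertain. Whether the 2 sets differ was not tested.

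**Figure D3:**
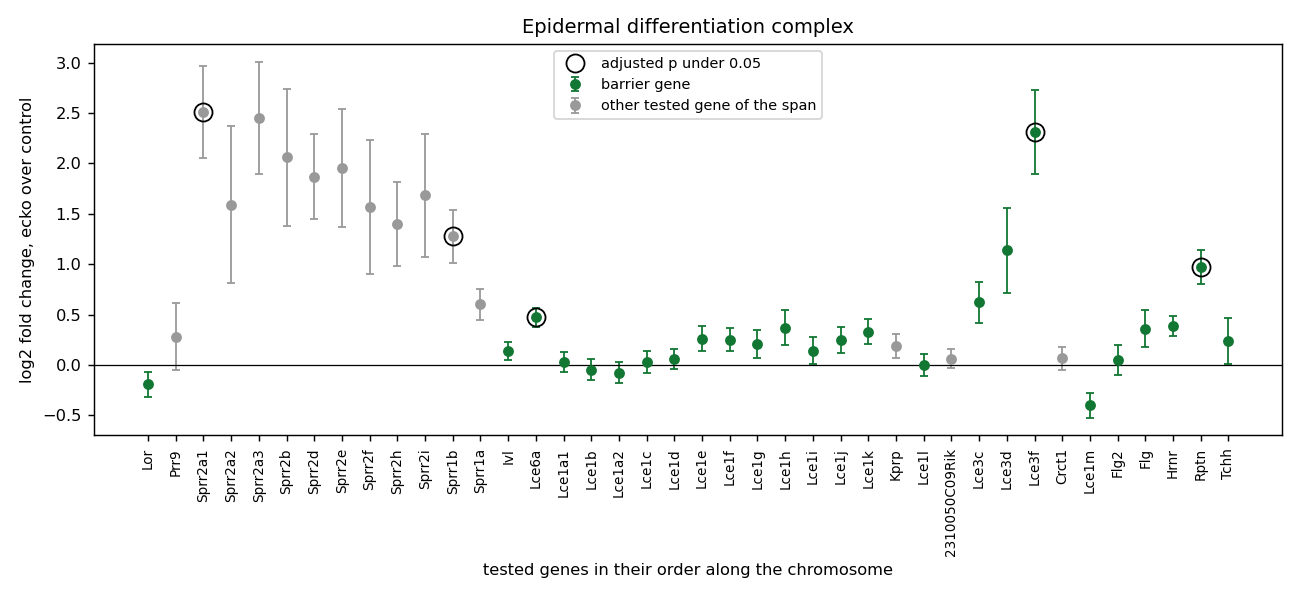
Points are log2 fold changes of ecko over control with bars of 1 SE, for tested genes in their order along the complex on chromosome 3, coloured by whether they belong to the barrier genes described here. The highest points are Sprr2a1, Sprr2a3 and Lce3f, the Lce1 genes other than Lce1m lie between -0.07 and 0.37, and Lce1m is the lowest point.

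Sex was balanced over the groups, with 1 female library in each, and the genotype difference was read in males and females separately with an interaction term added after the data were seen. In the 4 male libraries 43 of 49 genes were above 0, their median log2 fold change was 0.26, and 9 were called higher, against 0.557% of all genes tested in those libraries. The single female pair went the other way for 20 genes that were above 0 in males. How many of all tested genes did so was not counted. Flg had 0.65 in males and -0.12 in females, Lce1h 0.70 and -0.20, and Lor 0.01 and -0.60, while Rptn (1.23 and 0.54) and Casp14 (0.47 and 0.22) were above 0 in both. The p-values of the interaction rest on the spread among the male libraries alone, so no gene is said to differ by sex. With 1 female library per group, sex and that library cannot be told apart, and the female control is control 3, the highest control in 38 of the 49 genes.

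**Figure D4:**
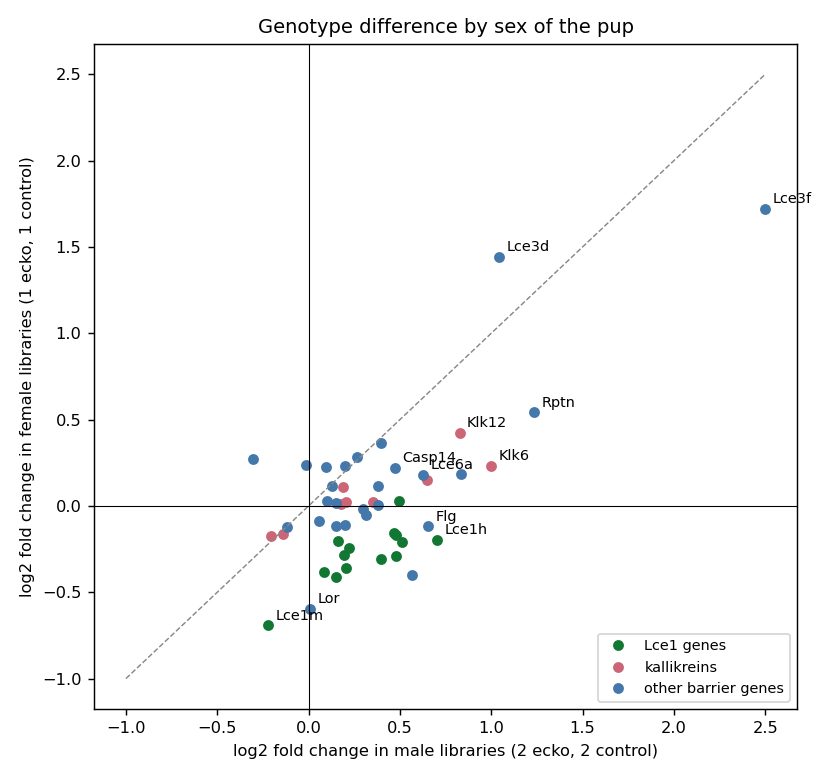
Each point is a tested barrier gene, with its log2 fold change of ecko over control in the 4 male libraries on the horizontal axis and in the 2 female libraries on the vertical axis. The 20 genes to the lower right were above 0 in males and below 0 in females.

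Markers of other layers and cells were read beside these genes. The sums of basal keratinocyte markers overlapped between groups, at 12140, 10720 and 10590 CPM in controls and 11620, 11660 and 11230 in ecko. Of these markers 0 of 8 were called. In 2 of the 8 every ecko library lay above every control, against 10.2% of all tested genes. Trp63, a regulator of the epidermal lineage, was 1 of these 2 (log2 fold change 0.32, edgeR adjusted p = 0.115), and Krt5 had 0.04. Suprabasal markers summed to 32840, 30870 and 32490 CPM in controls and 36740, 34130 and 34810 in ecko, with no overlap. Krt10 made up a large part of these sums, with means of 13175 CPM in controls and 14477 in ecko. By gene, 6 of the 8 had log2 fold changes above 0 and 2 below, with a median of 0.13. In 3 of the 8 every ecko library lay above every control, against 10.2% of all tested genes. Of those 8, Krt1, the keratin of the spinous layer, rose from 2028 ± 306 to 3428 ± 625 CPM (SD, n = 3 each; 0.76, SE 0.15, adjusted p = 0.0376), and its partner Krt10 had 0.14. All 5 endothelial markers fell (log2 fold changes -1.07 to -0.52). The lipid synthesis gene Fasn fell among 8 sebaceous gland markers (-0.48, adjusted p = 0.0220). Of the 8, 6 lay below 0 and 2 above, up to 0.39, with a median of -0.14. Every ecko library lay below every control in 2 of them and above in 1, against 10.9% and 10.2% of all tested genes. All 5 skeletal muscle markers lay below 0 (median -0.38) and none was called. Each of the 5 was lower at an unadjusted p under 0.05 (edgeR), against 7.95% of all tested genes. Their sums were 6331, 4665 and 4145 CPM in controls and 3837, 3984 and 3485 in ecko, with no overlap. The sum was highest in control 1, the library that was lowest in 23 of the 49 barrier genes. None was called among leukocyte markers (4 of 5 above 0; sums of 253 to 379 CPM in controls and 379 to 383 in ecko), fibroblast markers (2 of 7) or cartilage markers (1 of 5). No marker of these lists was at 0 in all libraries. The part of these cells in the barrier gene values was not tested.

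Other genes of the barrier pathway also lay mostly above 0. Of 20 genes of barrier lipid synthesis and transport, 17 were above 0 (median log2 fold change 0.12) and 1 rose, Degs2, a desaturase that makes phytoceramides, from 6.60, 7.72 and 6.59 CPM to 11.4, 10.95 and 10.1 (0.63, SE 0.11, edgeR adjusted p = 0.0272). Nipal4, an ichthyosis gene, had 0.38 (adjusted p = 0.0599). Of 16 tested proteases, inhibitors and filaggrin-processing genes 14 were above 0 and 1 rose, the calpain gene Capn12 (0.72, SE 0.14, adjusted p = 0.0346). None was called among 21 desmosome and scaffold genes (18 above 0, median 0.10) or 20 regulators of differentiation (15 above 0, median 0.13).

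**Figure D5:**
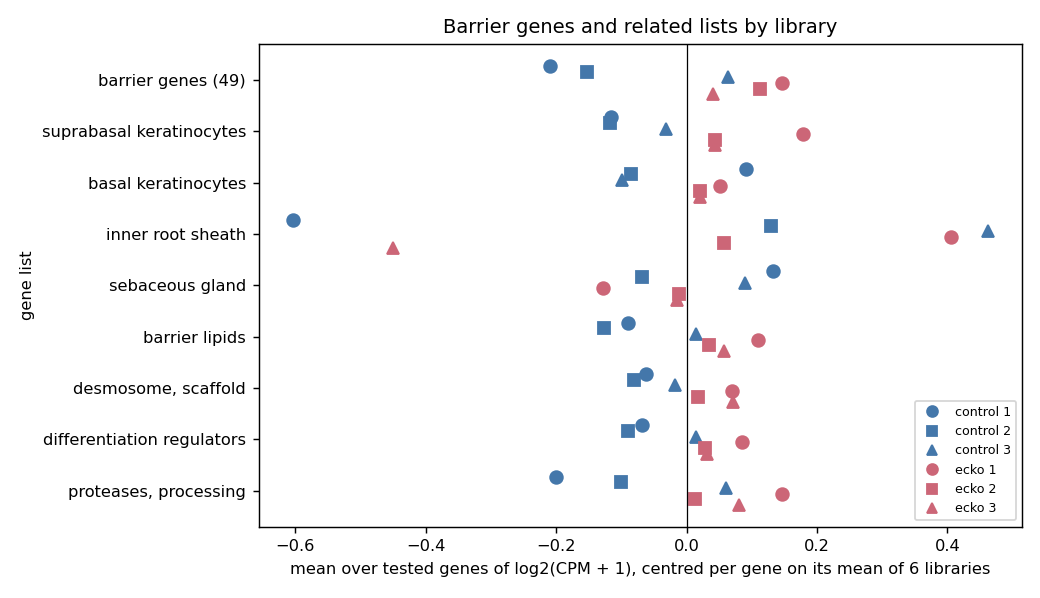
Points give, for each gene list and library, the mean over tested genes of log2(CPM + 1) centred per gene on its mean of 6 libraries. For the barrier genes controls 1 and 2 lie below 0, and control 3 lies among the 3 ecko libraries.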

How the data were processed

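Poly(A) RNA of 6 ear skin libraries (3 control, 3 ecko) was sequenced. The table deposited by the authors holds expected counts (RSEM-style estimates, 10.5% not whole) per gene, unscaled, per the file headers. The submitters' processing notes name RSEM 1.3.1, HISAT2 2.2.1, Bowtie2 2.4.5 and the build GRCm38.p6, without roles. No strand setting is given in the sources used here. RSEM divides reads shared by near-identical copies, and 23 of the 54 genes share over 5% of their 50-base words with other genes.

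Counts were rounded, filtered with filterByExpr (3556 of 18422 genes removed), scaled by TMM and tested with the edgeR 4.0.16 quasi-likelihood test in R 4.3.3, with genotype as the only term and Benjamini-Hochberg adjustment. A standard error is the fold change divided by the square root of F. Fold changes use edgeR's default prior count. A prior count of 2 was used first and replaced after the fold changes had been seen, to follow the processing used earlier on these data; it left every p-value as it was, and its values are in the closing section. Positions and promoters are from RefSeq (GRCm38.p6), lengths and transcripts from GENCODE M21.

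Named were Kdr, called genes, the 10 smallest p, the highest level and the highest and lowest change of each class, untested genes, and from other lists called genes or the 2 smallest p. Further genes were named after their values were seen. The genes and lists were chosen with earlier results of these data known. Alternatives were RLE factors, DESeq2 1.42.0, no low-count filter, a replicate block, the male libraries alone, each library left out and, for Lce1, Lce3 and Dsg1, family sums. The prior count, the sex interaction and the share of Lce1m were added after seeing the data. The test was run on simulated data beforehand.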

Additional observations from a re-analysis of the deposited data

How the results depend on the processing

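Over all genes, 102 were called higher: 195 with DESeq2, 63 with the replicate block, and 22 to 165 with 1 library left out. The 160 called lower became 91 in the male libraries alone and 34 to 242 with 1 library left out. Of the barrier genes, 4 were called higher: 7 with DESeq2, 2 (Lce3f and Rptn) with the block, 9 in the male libraries alone and 0 to 9 with 1 library left out; none was called lower, and 1 was with DESeq2. Signs turned for genes near 0. With 1 library left out, Dsg1c ranged from -0.355 to 0.0834 (0.0462 without control 1). The sum of the Dsg1 genes had 0.0996, but Dsg1c made up only 1.61 of its 1438 CPM in controls, so that value says little of Dsg1c. Sbsn ranged from -0.0572 to 0.0824, with -0.0129 without ecko 1 and -0.0196 without ecko 3. Flg2 ranged from -0.0766 to 0.233, with -0.0347 without ecko 3. Dsg1a ranged from -0.0016 to 0.1772 and Tgm3 from -0.0124 to 0.1067. In males Tgm3 had -0.0137 and Lor 0.0088. The cause was not tested. Over these settings and RLE factors and no low-count filter, 11 in all, 37 of 49 genes kept their sign, 33 above and 4 below 0.

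Deviations of same-numbered libraries correlated at 0.053, 0.048 and 0.172, and those of differently numbered libraries at -0.102 to 0.06. The highest was control 3 with ecko 3, both female, so a pairing by number and sex cannot be told apart there. Whether the numbers pair the libraries was thus not settled. A prior count of 2, the setting first used, moved 3 of 49 fold changes by over 0.05 (Lce3f from 2.31 to 2.00, Lce3d from 1.14 to 0.98, Klk12 from 0.68 to 0.58) and no adjusted p. With 3 libraries a group, low counts limit Lce3 genes, Crnn, Klk12 and Klk14.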
